A study of Rattus norvegicus with 6 samples.

Results

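The nuclear genes of the mitochondrial respiratory chain were examined in rat mammary tumors from animals given the garlic-derived organosulfur compound diallyl trisulfide (DATS) or its vehicle. They were taken by name: symbols that begin with Nduf and a subunit letter for complex I, the 4 Sdh genes for complex II, Uqcr genes and Cyc1 for complex III, Cox4 to Cox8 genes for complex IV and Atp5 genes for complex V. The rule found 88 of the 32545 rows of the deposited expression table, 36 of complex I, 4 of complex II, 9 of complex III, 20 of complex IV and 19 of complex V. These rows carried 83 symbols, since Atp5f1, Cox6b1, Cox7a2, Ndufa13 and Uqcr10 each stood on 2 rows. The naming rule itself uses no measured value. Some names match without being a subunit: Atp5s and Atp5sl are named Dmac2l and Dmac2 in RefSeq, and Ndufv3-ps1, Ndufb4l1, Cox6c1 and Atp5hl1 are pseudogenes or gene copies. Ndufa4 is now classed with complex IV and is kept here under its name. Cox7a1, the muscle isoform of subunit VIIa, was not among the rows and is not analysed here, nor are Ndufa3, Ndufa12, Ndufb1, Ndufb4, Ndufs6 and Uqcr11.

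All 6 tumors arose in female Sprague-Dawley rats injected at 21 days of age with N-methyl-N-nitrosourea (MNU), an alkylating mammary carcinogen, at 50 mg/kg, so that carcinogen and age at injection are common to both groups. From 1 week later, 5 gavages a week for 10 weeks delivered 100 µL of corn oil alone (vehicle, 3 tumors) or corn oil with 50 mg/kg DATS (3 tumors). The labels describe the tissue as mammary tumor and leave unsaid if each tumor had its own donor animal, so p-values measure the spread between these tumors only. Expression was given as FPKM, a read number divided by gene length and by a depth factor of the tumor, and thus a level per length.

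Complexes I to IV pass electrons from NADH or succinate to oxygen, and complexes I, III and IV pump protons across the inner mitochondrial membrane. Complex V, the ATP synthase, uses that proton gradient to make ATP. Most subunits are encoded in the nucleus and imported, and the remaining 13, none in complex II, are encoded by mitochondrial DNA. In most tissues the nuclear genes are expressed together, and the transcription factors NRF1, GABP and YY1 are known to bind many of their promoters. Several subunits of complex IV exist as isoforms restricted to heart and skeletal muscle, lung or testis.

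Each tumor had 13531587 to 16868211 reads recovered from the table, and 17684 to 18330 genes were above 0 in each. The luminal epithelial keratin Krt8 had 467 to 1315 FPKM, and all 14 luminal markers passed the filter of a mean of 1 FPKM over the tumors. Vehicle tumor 1 stood apart in skeletal muscle RNA: the summed level of 16 tested muscle markers was 2172 FPKM there and 38.1 to 60.3 FPKM in the other 5 tumors. Because these were whole tumors, fewer cells of a type and less RNA per cell cannot be told apart. The deposited FPKM totals also differed, from 566304 to 656017 in vehicle and from 662528 to 710096 in DATS tumors.

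Of the 88 rows, 80 passed the filter: 33 of complex I, 4 of complex II, 8 of complex III, 17 of complex IV and 18 of complex V. Of the 8 that did not, Ndufb4l1, Uqcr10 row 2, Cox6c1, Cox7b2, Cox8c and Atp5hl1 were at 0 in all 6 tumors. The other 2, Ndufa13 row 2 and Ndufv3-ps1, had mean levels of 0.734 and 0.76 FPKM. Cox7b2 and Cox8c are isoforms of complex IV known from testis.

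No gene of the respiratory chain passed the test of DATS against vehicle. In limma's fit across all 13631 tested genes 0 were called (0%), and the lowest Benjamini-Hochberg adjusted p, 0.819, was shared by the lowest members. Most members nevertheless had a higher mean in the DATS tumors: 68 of the 80 had a log2 difference above 0, against 49.2% of all tested genes, and the median difference was 0.28 for the members and -0.00 for all genes. At an unadjusted p under 0.05 there were 14 members, all higher, where 5.85% of all tested genes reached that p, 3.74% higher and 2.11% lower. For 22 members each of the 3 DATS tumors exceeded each vehicle tumor (6.72% of all genes) and for 1, Cox6a2, each was below (5.5% of all genes). Rescaling every tumor to the same FPKM total lowered the median of all genes to -0.16 and that of the members to 0.10, with 54 of 80 above 0, while their distance above the median of all genes was 0.27, against 0.29 as deposited. At equal totals 3 members were above vehicle without overlap and 7 below, beside 1.5% and 14.3% of all genes. The balance of 22 to 1 thus turned over along with that of all genes, which was 6.72% and 5.5% as deposited. Quantile normalization and removal of a trend on gene length both gave a distance of 0.13. Under the first 6 members were above and 1 below, beside 5.62% and 5.39% of all genes. Under the second 10 were above and 3 below, beside 5.46% and 6% of all genes.

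**Figure D1:**
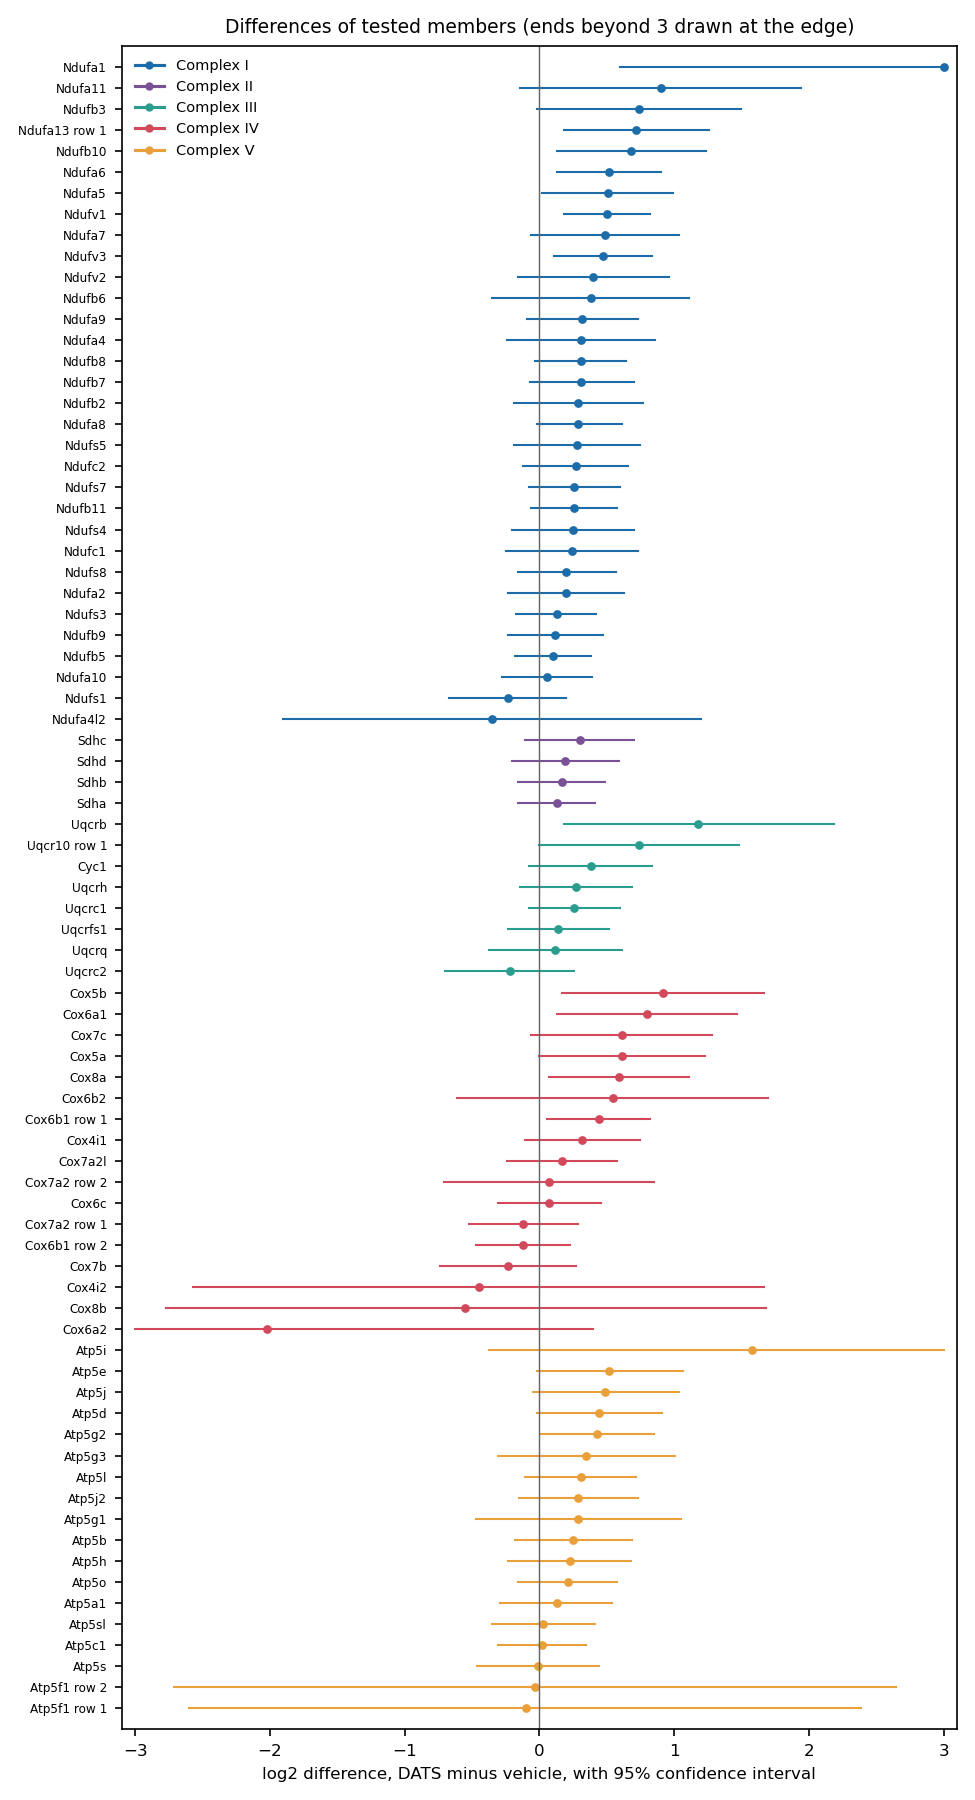
Log2 difference of 79 of the 80 tested members, as DATS minus vehicle in units of log2(FPKM + 1), with its 95% confidence interval from limma, grouped by complex (ends beyond 3 are drawn at the edge, where the point of Ndufa1, at 4.03, also stands). Points lie to the right of 0 for 67 of these members, most of the intervals include 0, and the tissue isoforms have the widest intervals in complex IV.

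The tumors within a group were not alike. The median deviation of a member from its own mean over the 6 tumors was -0.04, -0.15 and -0.30 in vehicle tumors 1, 2 and 3 and -0.01, 0.20 and 0.23 in DATS tumors 1, 2 and 3, on the log2 scale. DATS tumors 2 and 3 were thus the high ones, DATS tumor 1 lay beside vehicle tumor 1, and vehicle tumor 3 was the lowest. DATS tumor 3 was the highest of the 6 tumors for 38 members and DATS tumor 2 for 18, while vehicle tumor 3 was the lowest for 45. DATS tumors 2 and 3 both exceeded the other 4 tumors for 44 of the 80 members, where 11.3% of all tested genes did so; this count was chosen after the values were seen and carries no test. Under equal totals, quantile normalization and removal of the length trend the count was 34, 32 and 35, beside 6.29%, 9.35% and 9.93% of all genes. With all 6 tumors 14 members and 797 of all 13631 tested genes had an unadjusted limma p under 0.05. Without DATS tumor 1 the counts were 33 members and 1221 genes, and the median difference of the members was 0.34. Without DATS tumor 2 they were 1 and 428, and without DATS tumor 3 they were 2 and 594, with medians of 0.25 and 0.23. Without vehicle tumor 1 they were 19 and 1131, with a median of 0.35. Without vehicle tumor 2 or 3 there were 3 members, beside 538 and 657 genes, with medians of 0.31 and 0.23. Of the 3 without vehicle tumor 2, 2 were higher and 1 lower.

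**Figure D2:**
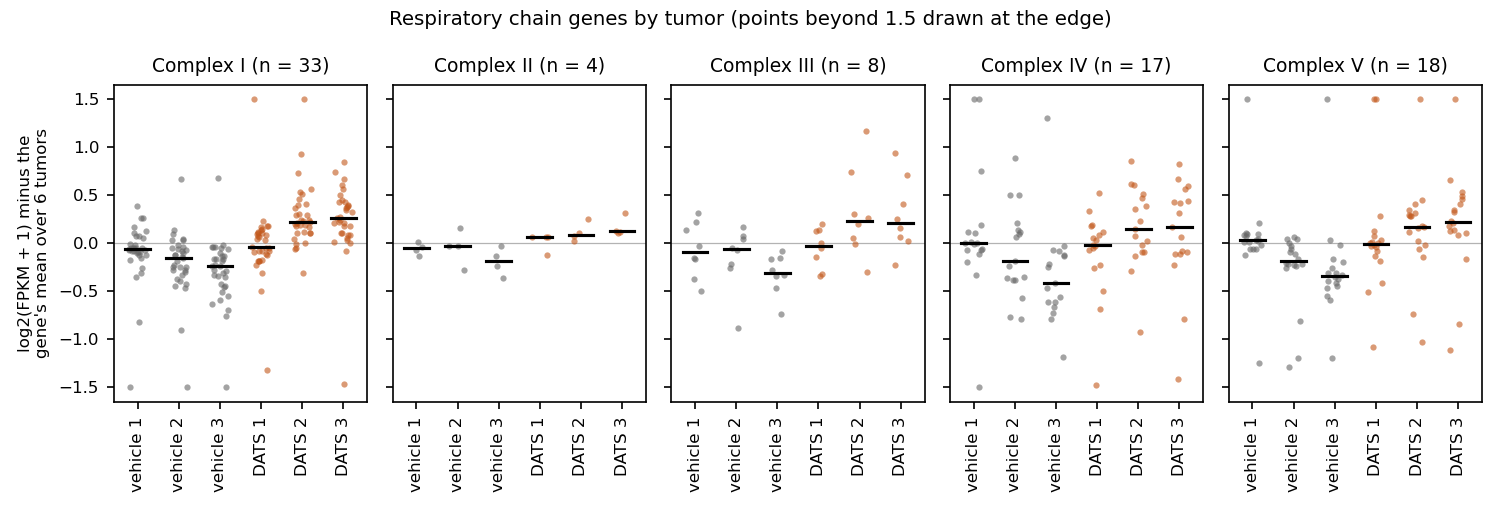
Each point is a tested member, plotted as log2(FPKM + 1) minus the mean of that gene over the 6 tumors, by tumor and complex; black lines are medians, and points beyond 1.5 are drawn at the edge. The medians of DATS tumors 2 and 3 are the 2 highest in every complex, and vehicle tumor 3 has the lowest median in each.

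Other features of the tumors also differed between the group means, and their part in the result was not tested. Their order of tumors varied between lists. Luminal epithelial markers had median deviations of -0.10, -0.51 and 0.10 in vehicle tumors 1, 2 and 3. In DATS tumors 1, 2 and 3 they had -0.05, 0.12 and 0.45. DATS tumors 3 and 2 were thus the highest, as for the members, while vehicle tumor 2 was the lowest. Other lists had a different order. The median deviation of myoepithelial and basal markers was 0.20 in vehicle tumor 3 and -0.52 in DATS tumor 3. That of immediate early genes was -0.42 in DATS tumor 3, and that of adipocyte markers was -0.88 in DATS tumor 2. Of the 14 luminal epithelial markers 13 had a higher mean in the DATS tumors (12 under equal totals); their summed level was 2070 to 2712 FPKM in vehicle and 2827 to 4481 FPKM in DATS tumors, highest in DATS tumor 3, and none was at 0. All 14 immediate early genes, which respond within minutes to stimuli or handling, were higher (13 under equal totals), by a median of 0.50; their summed level was 633 to 693 FPKM in vehicle and 771 to 1503 FPKM in DATS tumors, and 11 were highest in DATS tumor 2. All 10 myoepithelial and basal markers were higher, also under equal totals, with a median of 0.49 and summed levels of 1137 to 2310 FPKM in vehicle and 1300 to 2951 FPKM in DATS tumors. The 4 tested adipocyte markers were higher (3 under equal totals), with a median of 0.75 and summed levels of 77 to 167 against 90 to 239 FPKM; Adipoq was at 0 in DATS tumor 2. Of 12 leukocyte markers 9 were lower, with a median of -0.24 and summed levels of 192 to 870 FPKM in vehicle, highest in vehicle tumor 2, and 285 to 407 FPKM in DATS tumors. Of 9 fibroblast markers 7 were lower (9 under equal totals), with a median of -0.14 and summed levels of 1092 to 1799 against 988 to 1666 FPKM. The members are short genes, with a median implied length of 718 bp against 2141 bp for all tested genes. Over members shorter than 600 bp the median difference was 0.30 (32 members, 27 higher), over those of 600 to 1000 bp it was 0.32 (20 members, 19 higher) and over those of 1000 bp or more 0.13 (28 members, 22 higher). The medians of all tested genes in these length classes were 0.10, 0.13 and -0.02. With the length trend removed, DATS tumors 2 and 3 had median deviations of 0.12 and 0.13, and vehicle tumor 3 had -0.14.

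**Figure D3:**
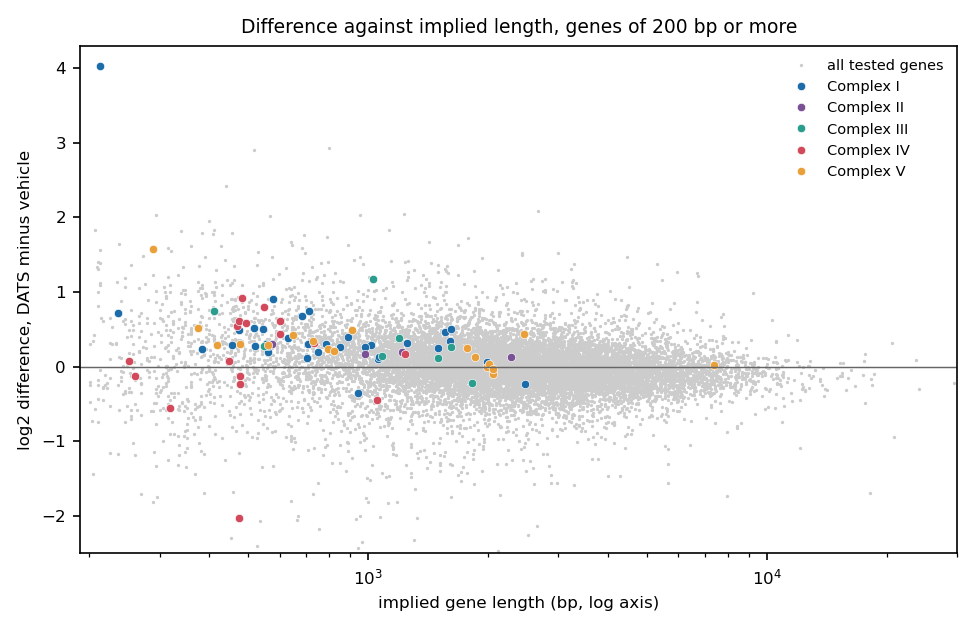
Log2 difference, DATS minus vehicle, against implied gene length in bp (log axis) for the members, colored by complex, and for all tested genes of 200 bp or more in grey. The median of members of 1000 bp or more is 0.13, against 0.30 and 0.32 in the shorter classes, with exceptions such as Uqcrb (1029 bp) at 1.18 and Cox6c (448 bp) at 0.07; Ndufa1, at 4.03, is the highest point.

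The promoters of 4 members are printed because the results below turn on these genes: Atp5i, whose DATS tumors ran from 43.8 to 327 FPKM; Cox5b, the complex IV member with the smallest p; Cox4i1, a widely expressed subunit; and Cox6a2, the muscle isoform of subunit VIa. The windows run from 250 bases before to 50 after the start of the gene, from RefSeq with build GRCr8, and the capitals mark exact matches to 3 motifs on either strand: GCGCA and GCGC with 1 base of any kind between them for NRF1, CCGGAAG for GABP and AANATGGC for YY1.
Atp5i (Atp5me in RefSeq), chr14:1464610-1464909, plus strand: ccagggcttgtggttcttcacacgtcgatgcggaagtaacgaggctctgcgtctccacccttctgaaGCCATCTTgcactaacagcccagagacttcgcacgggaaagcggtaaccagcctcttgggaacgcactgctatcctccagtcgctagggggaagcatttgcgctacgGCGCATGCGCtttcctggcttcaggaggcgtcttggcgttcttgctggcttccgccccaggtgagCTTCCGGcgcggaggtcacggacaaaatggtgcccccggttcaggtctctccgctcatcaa
Cox5b, chr9:46417587-46417886, plus strand: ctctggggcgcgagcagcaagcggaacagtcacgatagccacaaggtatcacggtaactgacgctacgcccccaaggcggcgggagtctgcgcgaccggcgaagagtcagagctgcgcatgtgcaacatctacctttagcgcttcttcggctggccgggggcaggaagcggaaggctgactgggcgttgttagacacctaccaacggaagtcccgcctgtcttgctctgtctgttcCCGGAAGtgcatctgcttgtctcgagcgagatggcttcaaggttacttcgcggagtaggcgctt
Cox4i1, chr19:65630133-65630432, plus strand: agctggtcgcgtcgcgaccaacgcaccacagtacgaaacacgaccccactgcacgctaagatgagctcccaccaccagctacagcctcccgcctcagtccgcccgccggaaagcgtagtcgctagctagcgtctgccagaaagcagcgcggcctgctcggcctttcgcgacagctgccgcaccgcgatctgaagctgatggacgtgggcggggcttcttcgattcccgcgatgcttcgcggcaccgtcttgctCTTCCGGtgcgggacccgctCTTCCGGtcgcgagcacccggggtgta
Cox6a2, chr1:192219667-192219966, minus strand: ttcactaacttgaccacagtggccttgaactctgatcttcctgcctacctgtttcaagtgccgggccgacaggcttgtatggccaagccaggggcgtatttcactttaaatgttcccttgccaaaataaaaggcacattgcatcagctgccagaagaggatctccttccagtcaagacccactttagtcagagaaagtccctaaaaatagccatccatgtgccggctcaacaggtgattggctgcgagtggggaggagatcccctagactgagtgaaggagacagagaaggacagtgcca
The window of Atp5i holds all 3 motifs, at -183 (YY1), -76 (NRF1) and -11 (GABP) from the start. That of Cox5b holds a GABP match at -14 and that of Cox4i1 2 GABP matches, the first at 4 bases into the gene. None of these letters is found in the window of Cox6a2.

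Of the 83 symbols 70 had a promoter entry. The GABP motif was in 20 of these 70 windows (28.6%), against 8.75% of all 33469 windows and 10.7% of the 21851 of protein-coding genes. The YY1 motif was in 28 (40%), against 6.96% and 7.67%, and the NRF1 motif in 11 (15.7%), against 4.25% and 5.67%. By complex, the NRF1 motif was in 5 of 15 windows of complex V and in 0 of 14 of complex IV. The YY1 motif was in 14 of 31 windows of complex I. The motifs can share letters, since the end of CCGGAAG can serve as the start of AANATGGC. Shared matches were not counted apart, and a match describes the sequence only.

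Complex I oxidizes NADH through a flavin and a chain of iron-sulfur clusters. Its 33 tested rows had a median difference of 0.31, with 31 higher and 2 lower, and 13 lay above the vehicle tumors without overlap (background 6.72%). Of the 7 subunits of the redox core, 6 were higher, with a median of 0.26.

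Ndufv1, which binds the flavin and NADH, had 79.5, 75.6 and 71.1 FPKM in the vehicle and 97.2, 110 and 114 FPKM in the DATS tumors. Every DATS tumor was above every vehicle tumor. The log2 difference was 0.50 ± 0.13 (SE), with an unadjusted limma p of 0.00788, the smallest of all members, and an adjusted p of 0.819. The iron-sulfur subunit Ndufs7 had 81.1, 103 and 93.5 against 108, 109 and 114 FPKM, again without overlap (0.26 ± 0.14). Ndufs3 had 68.6 to 78.9 FPKM in vehicle and 79.0 to 82.5 FPKM in DATS tumors, a narrow gap with a difference of 0.13 ± 0.12 that was -0.05 under equal totals. For Ndufv2 and Ndufs8, which carry further iron-sulfur clusters, the groups overlapped, with differences of 0.40 ± 0.23 and 0.20 ± 0.15.

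Ndufs1, the largest iron-sulfur subunit, went the other way. It had 41.1, 33.4 and 28.5 FPKM in the vehicle and 32.2, 25.1 and 29.5 FPKM in the DATS tumors. The groups overlapped and the difference of -0.23 ± 0.18 was within the spread between tumors. The subunits of one redox core therefore did not share a direction in these means.

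All 24 tested accessory subunits of complex I had a difference above 0 (21 under equal totals), from 0.06 for Ndufa10 to 4.03 for Ndufa1, with a median of 0.31. Ndufa6, which holds the mitochondrial acyl carrier protein, had 202, 185 and 159 FPKM in the vehicle and 233, 266 and 280 FPKM in the DATS tumors (difference 0.52 ± 0.16, unadjusted p = 0.016). Ndufa13, also known as GRIM-19, had 189, 152 and 145 against 199, 299 and 315 FPKM on its main row, where DATS tumor 1 was just above vehicle tumor 1 (0.72 ± 0.22). RefSeq lists 4 pseudogenes named for Ndufa13, and how reads of such copies were counted is not given in the sources used here. Ndufb10 had 132, 90.3 and 80.0 against 131, 172 and 177 FPKM, so DATS tumor 1 sat beside vehicle tumor 1 (0.68 ± 0.23); it was named after its values were seen. Ndufb8 and Ndufb11, of the membrane arm, were above vehicle in every DATS tumor, at 252 to 271 against 191 to 224 FPKM and at 142 to 150 against 109 to 130 FPKM.

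Ndufa1, a small membrane-arm subunit encoded on the X chromosome, had the largest difference of any tested gene. It had 1.6, 1.59 and 0.324 FPKM in the vehicle and 75.9, 166 and 2.03 FPKM in the DATS tumors. DATS tumors 1 and 2 were high and DATS tumor 3 was near vehicle, which is not the order seen for most other members. These levels rested on 6, 5 and 1 reads in the vehicle and 226, 476 and 6 reads in the DATS tumors, over an implied length of 213 bp. The difference was 4.03 ± 1.42 (unadjusted p = 0.0277), and without one tumor at a time it ran from 2.88 to 5.77. RefSeq lists 1 pseudogene named for Ndufa1.

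Complex II, succinate dehydrogenase, links the citric acid cycle to the chain and is the only complex with no mitochondrially encoded subunit. Its 4 genes differed little, with a median of 0.18 (0.12 without vehicle tumor 3) and a range of 0.13 to 0.30. Sdha, the flavoprotein, had 72.5, 77.5 and 78.0 FPKM in the vehicle and 82.8, 80.9 and 85.3 FPKM in the DATS tumors. Sdhb, the iron-sulfur subunit, had 165, 160 and 138 against 171, 172 and 177 FPKM. Both were above vehicle in every DATS tumor, yet their differences, 0.13 ± 0.12 and 0.17 ± 0.14, became -0.05 and -0.01 under equal totals. The membrane anchors Sdhc and Sdhd had differences of 0.30 ± 0.17 and 0.19 ± 0.16, and their groups overlapped.

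Complex III passes electrons from ubiquinol to cytochrome c. Of its 8 tested rows 7 were higher, with a median of 0.27; its redox subunits, the Rieske protein Uqcrfs1 and cytochrome c1 (Cyc1), had differences of 0.14 ± 0.16 and 0.38 ± 0.19 with overlapping groups. Uqcrfs1 was at -0.04 and -0.02 under equal totals and quantile normalization.

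The core proteins of complex III, which have no redox centre, parted. Uqcrc1 had 131, 142 and 131 FPKM in the vehicle and 142, 169 and 176 FPKM in the DATS tumors (0.26 ± 0.14). Uqcrc2 had 73.5, 66.7 and 53.2 against 68.0, 47.8 and 50.4 FPKM (-0.22 ± 0.20); it was named after its values were seen. DATS tumors 2 and 3 were the highest tumors for Uqcrc1 and the lowest for Uqcrc2. Whether these differences differ was not tested.

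The small subunits of complex III had a median of 0.51 over 4 tested rows. Uqcrb, which lies near the ubiquinone site, had 27.0, 15.9 and 17.7 FPKM in the vehicle and 23.9, 68.7 and 58.7 FPKM in the DATS tumors. Uqcr10 had 35.2, 41.5 and 39.1 against 39.2, 84.2 and 82.4 FPKM on its expressed row. In both, DATS tumors 2 and 3 were high and DATS tumor 1 lay within the vehicle range. The differences were 1.18 ± 0.42 for Uqcrb and 0.74 ± 0.31 for Uqcr10, with unadjusted p-values of 0.0279 and 0.0498.

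**Figure D4:**
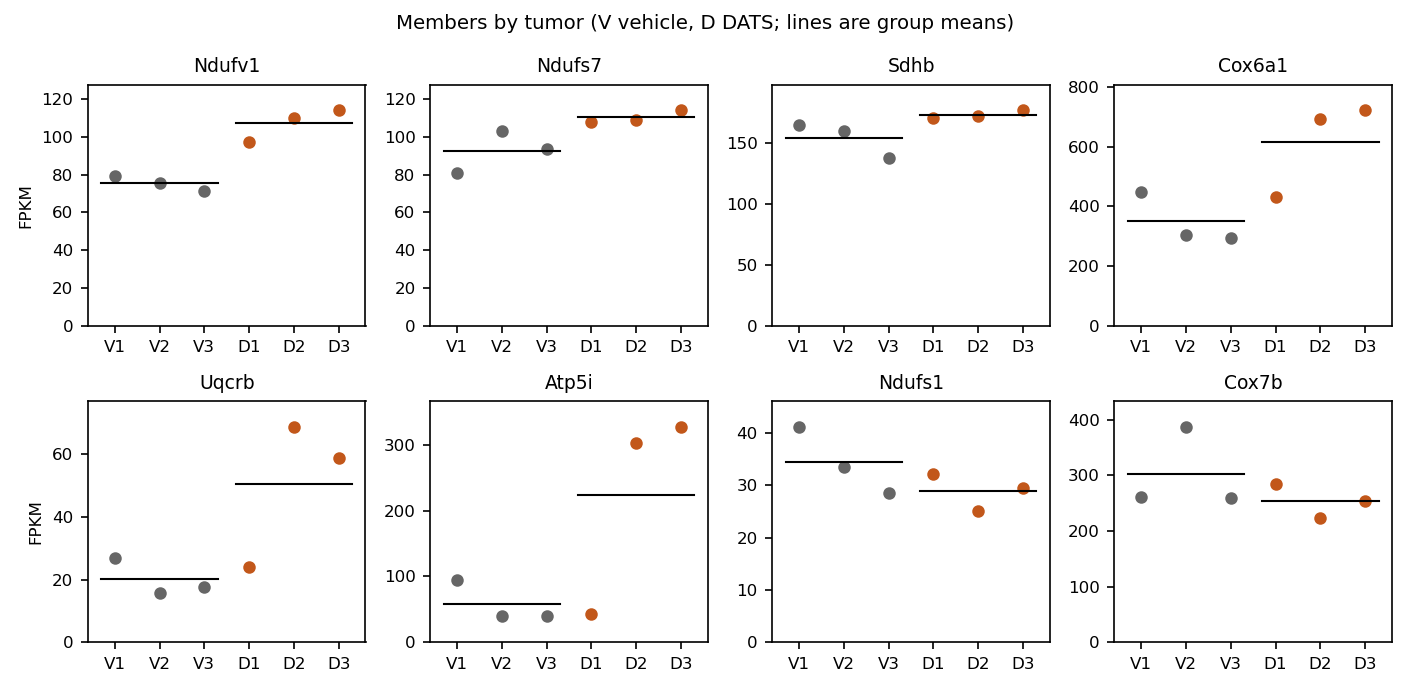
FPKM of 8 members in each tumor (V1 to V3 vehicle in grey, D1 to D3 DATS in orange, lines are group means, linear axes from 0). Ndufv1, Ndufs7 and Sdhb are above vehicle in all 3 DATS tumors, Cox6a1, Uqcrb and Atp5i are high in D2 and D3 only among the DATS tumors, and the means of Ndufs1 and Cox7b are lower in DATS.

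Complex IV, cytochrome c oxidase, reduces oxygen; its catalytic subunits are mitochondrially encoded and the nuclear ones surround them. Of 17 tested rows 11 were higher and 6 lower, with a median of 0.17 (-0.01 under equal totals, 0.05 after quantile normalization, 0.09 after removal of the length trend). Leaving out 1 tumor moved this median between 0.09 (without vehicle tumor 3) and 0.33 (without vehicle tumor 2). The 13 rows of widely expressed subunits had a median of 0.32, with 10 higher (0.14 and 7 under equal totals), and the 4 of tissue isoforms one of -0.50, with 1 higher.

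Cox5b, a matrix-facing subunit that binds zinc, had 265, 143 and 147 FPKM in the vehicle and 259, 441 and 332 FPKM in the DATS tumors. DATS tumors 2 and 3 were above the other 4, and DATS tumor 1 was within the vehicle range. The difference was 0.92 ± 0.31 (unadjusted p = 0.0239, adjusted p = 0.819). Cox5a, a separate subunit and not an isoform of Cox5b, had 215, 155 and 126 against 196, 256 and 301 FPKM. DATS tumors 2 and 3 were again the highest for Cox5a, with a difference of 0.61 ± 0.26. Cox6a1 and Cox8a followed with differences of 0.80 ± 0.28 and 0.59 ± 0.22; their levels were 296 to 450 against 431 to 722 FPKM and 350 to 462 against 466 to 689 FPKM.

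Cox4i1, a subunit that joins the catalytic core early in assembly and whose promoter is printed above, had 522, 702 and 553 FPKM in the vehicle and 741, 726 and 739 FPKM in the DATS tumors. The DATS tumors lay close together, with an SD of 8.3 FPKM against 96.4 FPKM in vehicle, and above all vehicle tumors. Its difference was 0.32 ± 0.18 (unadjusted p = 0.117). Not every abundant subunit had a positive difference: Cox7b had 261, 387 and 260 against 284, 224 and 254 FPKM (-0.23 ± 0.21), and the main row of Cox7a2 had a difference of -0.12 ± 0.17. The rows of Cox6b1 went in different directions, at 0.44 ± 0.16 for the main row and -0.12 ± 0.14 for the second, and since 1 symbol stands on both, the split of reads between them is uncertain.

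The tissue isoforms were minor beside their widely expressed partners and varied widely between tumors of the same group. Cox6a2, the isoform of heart and skeletal muscle, had 47.2, 2.28 and 3.05 FPKM in the vehicle and 1.66, 1.25 and 0.605 FPKM in the DATS tumors. Vehicle tumor 1 stood far above the rest: Cox6a2 was 9.48% of the sum of Cox6a1 and Cox6a2 FPKM there and 0.0838% to 1.02% in the other 5 tumors. Its difference was -2.02 ± 1.01 (unadjusted p = 0.0883) with all tumors and -0.78 without vehicle tumor 1. Cox8b, the muscle isoform of subunit VIII, had 8.18, 0 and 0 FPKM in the vehicle and 0.224, 1.39 and 0 FPKM in the DATS tumors, and its difference of -0.55 became 0.52 without vehicle tumor 1.

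Skeletal muscle markers moved with both. All 16 tested markers were highest in vehicle tumor 1: the actin Acta1 had 677 FPKM there and at most 2.26 FPKM elsewhere, and creatine kinase Ckm had 131 FPKM and at most 0.576 FPKM. Their summed level was 38.1 to 2172 FPKM in vehicle and 44.1 to 50.4 FPKM in DATS tumors. Ckm and Myl1 were at 0 in DATS tumor 1, Tnnc2 in vehicle tumor 2 and Tnni1 in vehicle tumor 3. Some markers, such as Ckm and Myl1, and Cox8b too, passed the filter only through vehicle tumor 1. That such genes were highest there was thus partly fixed by the filter. The part of muscle in the values of Cox6a2 and Cox8b was not tested beyond leaving out that tumor. Ucp1, which defines brown fat, another tissue rich in mitochondria, was at 0 in 5 tumors and at 0.0577 FPKM in vehicle tumor 3. Only 1 of 5 brown adipocyte markers, Cidea, passed the filter. It had 1.25, 2.11 and 2.66 FPKM in the vehicle and 7.07, 2.98 and 1.84 FPKM in the DATS tumors (0.61 ± 0.42).

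Cox4i2, an isoform of Cox4i1 known from lung and from oxygen-sensing cells, had 1.24, 10.8 and 14.7 FPKM in the vehicle and 1.29, 5.27 and 10.3 FPKM in the DATS tumors. Ndufa4l2, a hypoxia-inducible relative of Ndufa4, had 3.01, 10.2 and 10.3 against 1.82, 5.81 and 11.7 FPKM. Both were low in tumor 1 of each group and their groups overlapped, with differences of -0.45 ± 0.88 and -0.35 ± 0.65 that changed sign when single tumors were left out. Both genes are known as markers of pericytes, the contractile cells around capillaries. Of the 6 pericyte markers listed 5 were lower in the DATS tumors, with summed levels of 32.3, 68.4 and 108 FPKM in the vehicle and 33, 51.3 and 79 FPKM in the DATS tumors and none at 0. Rgs5 had 13.6, 37.4 and 57.8 against 11.5, 20.0 and 37.0 FPKM, also lowest in tumor 1 of each group. This order was not particular to pericytes. The summed endothelial markers had 22.8, 61.7 and 56.5 against 32, 33.6 and 50.6 FPKM. Summed fibroblast and leukocyte markers were likewise lowest in tumor 1 of each group. The part of pericytes or of these other cells in the isoform values was not tested. Cox4i2 was 0.174% to 2.58% of the sum of both Cox4 isoforms.

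Cox6b2, an isoform best known from testis, was the tissue isoform present in all tumors at several FPKM: 18.0, 7.64 and 3.97 in the vehicle and 15.2, 13.7 and 9.64 in the DATS tumors. It made up 1.22% to 4.22% of the Cox6b sum, and its difference of 0.55 ± 0.48 was within the spread between tumors.

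**Figure D5:**
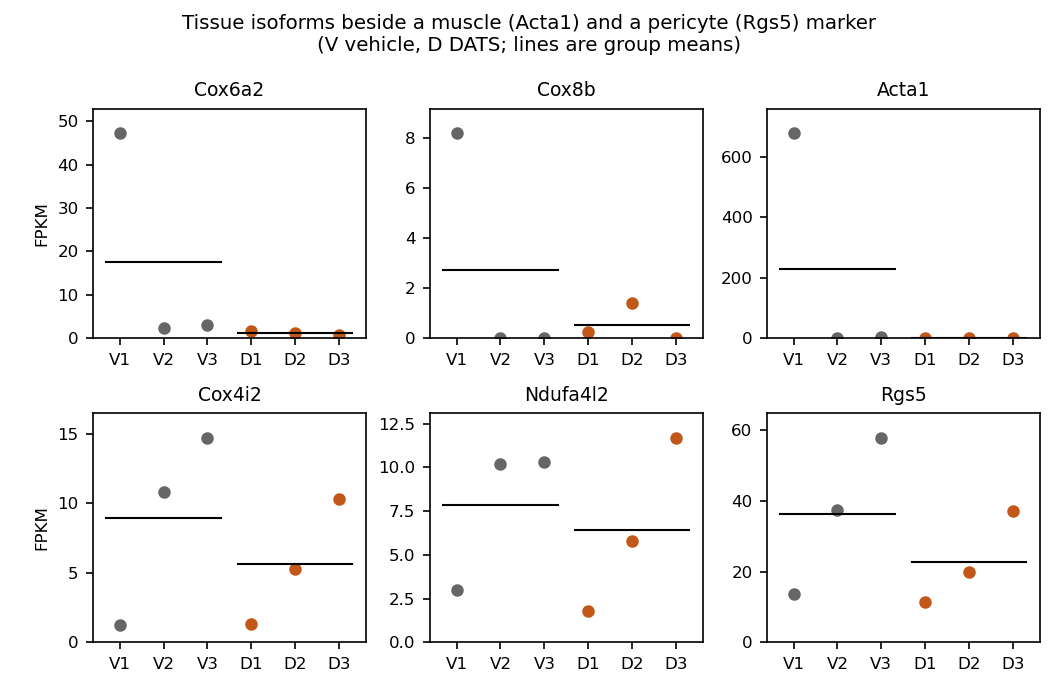
FPKM in each tumor of 4 tissue isoforms beside Acta1, a skeletal muscle marker, and Rgs5, a pericyte marker (V1 to V3 vehicle in grey, D1 to D3 DATS in orange, lines are group means, linear axes from 0). Cox6a2, Cox8b and Acta1 are high in V1, and Cox4i2, Ndufa4l2 and Rgs5 are lowest in V1 and D1.

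Complex V has a catalytic head (F1) driven by a ring of c subunits in the membrane, with a peripheral stalk to hold the head still. Of its 18 tested rows 15 were higher, with a median of 0.27; 3 were above vehicle without overlap (background 6.72%), and DATS tumors 2 and 3 exceeded the other 4 for 11 (background 11.3%). Without vehicle tumor 3 this median was 0.18. The 5 subunits of the head had a median of 0.25, which was -0.02 under quantile normalization. The catalytic beta subunit Atp5b had 713, 570 and 556 FPKM in the vehicle and 656, 745 and 781 FPKM in the DATS tumors, and alpha (Atp5a1) had 431, 317 and 332 against 381, 379 and 408 FPKM. For both, vehicle tumor 1 was among the high tumors and the groups overlapped. The differences were 0.25 ± 0.18 for Atp5b, 0.13 ± 0.17 for Atp5a1 and 0.02 ± 0.14 for gamma (Atp5c1), and under quantile normalization they were -0.02, -0.03 and -0.04. The small subunits delta (Atp5d) and epsilon (Atp5e) had 0.44 ± 0.19 and 0.52 ± 0.23.

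The c ring is made by 3 genes that encode the same mature protein, and their levels were high together in DATS tumors 2 and 3 and parted in DATS tumor 1. Atp5g2 had 513, 497 and 438 FPKM in the vehicle and 558, 695 and 708 FPKM in the DATS tumors (0.43 ± 0.17, unadjusted p = 0.0453). Atp5g1 had 225, 197 and 163 against 150, 262 and 337 FPKM, and Atp5g3 had 293, 244 and 231 against 216, 392 and 405 FPKM. In DATS tumor 1, Atp5g1 and Atp5g3 were the lowest of all 6 tumors while Atp5g2 was above every vehicle tumor.

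Atp5i, the e subunit, which helps ATP synthase form dimers, had 95, 40.6 and 40.4 FPKM in the vehicle and 43.8, 302 and 327 FPKM in the DATS tumors. DATS tumors 2 and 3 stood far above the other 4, and DATS tumor 1 was inside the vehicle range. The difference of 1.58 ± 0.81 had an unadjusted p of 0.0958, and the gene was named after its values were seen. Its implied length was 289 bp and its depth 169 to 1315 reads. The g and f subunits beside it in the membrane, Atp5l and Atp5j2, moved far less, with differences of 0.31 ± 0.17 and 0.29 ± 0.18.

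In the peripheral stalk Atp5h had 278, 268 and 188 FPKM in the vehicle and 284, 283 and 281 FPKM in the DATS tumors, so that vehicle tumor 3 made most of the gap (0.23 ± 0.19). The b subunit, Atp5f1, stood on 2 rows of the same implied length of 2063 bp, whose levels differed between tumors by over 10 times. Row 1 had 13.2, 0.558 and 1.81 FPKM in the vehicle and 11.3, 1.29 and 0.767 FPKM in the DATS tumors, and row 2 had 0.44, 0.953 and 13.7 against 11.1, 0.682 and 0.906 FPKM. Summed, they had 13.6, 1.51 and 15.5 FPKM in the vehicle and 22.4, 1.98 and 1.67 FPKM in the DATS tumors, so vehicle tumors 1 and 3 and DATS tumor 1 were high and the other 3 low. Row 1 held the reads in vehicle tumor 1 and row 2 in vehicle tumor 3, and RefSeq lists 3 pseudogenes of that name. Both rows are therefore uncertain as a measure of the b subunit, and the other subunits of the stalk did not show this order of tumors. Atpif1, the inhibitor that stops the enzyme from running backward, had 360, 365 and 338 FPKM in the vehicle and 410, 425 and 402 FPKM in the DATS tumors, without overlap and with a difference of 0.22 ± 0.14. Usmg5, another complex V gene outside the naming rule, had 770, 664 and 577 against 614, 729 and 744 FPKM. Its groups overlapped, with a difference of 0.06 ± 0.19.

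Near-identical copies could affect many of these genes. Among the 41 tested members with a single row and no RefSeq pseudogene of their name, 34 were higher and the median was 0.26. All 80 members, which include these 41, had 0.28. Only 3 of the 41 had an unadjusted limma p under 0.05, against 14 of all 80 (5.85% of all tested genes). For 12 the DATS tumors lay above vehicle without overlap, against 22 of all 80 (6.72%). DATS tumors 2 and 3 exceeded the other 4 for 19, against 44 of all 80 (11.3%). The part of such copies in these values was not tested.

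The 13 mitochondrially encoded subunits had a median difference of 0.07, with 10 higher and 3 lower, which turned to -0.11, -0.10 and -0.08 under equal totals, quantile normalization and removal of the length trend. The 3 lower ones as deposited were Mt-nd4, Mt-nd4l and Mt-atp8. Mt-nd4 had 209, 380 and 388 FPKM in the vehicle and 413, 119 and 60.7 FPKM in the DATS tumors. Mt-atp8 had 311, 774 and 509 against 762, 84.6 and 95.1 FPKM, and Mt-nd4l had 749, 929 and 739 against 1213, 455 and 408 FPKM. DATS tumors 2 and 3, high for the nuclear genes, were the lowest of the 6 tumors for these 3, and DATS tumor 1 was high. Mt-nd4l overlaps Mt-nd4 and Mt-atp8 overlaps Mt-atp6 on the mitochondrial genome, so their reads cannot be fully separated. Mt-nd3 was above vehicle in every DATS tumor, at 2807 to 3264 against 1580 to 2594 FPKM.

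Assembly factors, which insert cofactors and join subunits, had a median of 0.11 over 40 tested rows, with 27 higher (-0.06 and 15 under equal totals). As deposited, 7 were above vehicle without overlap (6.72% of all genes) and 2, Foxred1 and Cox18, below (5.5% of all genes). Ndufaf6, an assembly factor of complex I, had 4.78, 4.16 and 5.31 FPKM in the vehicle and 13.0, 9.63 and 9.55 FPKM in the DATS tumors. Every DATS tumor was well above every vehicle tumor, with a difference of 1.02 ± 0.18, an unadjusted p of 0.00114 and an adjusted p of 0.819. Uqcc3, of complex III assembly, had 58.6, 59.9 and 67.9 against 82.5, 79.3 and 84.6 FPKM (0.40, unadjusted p = 0.0174). Cox17, a copper chaperone of complex IV, had 121, 119 and 94.3 against 107, 181 and 233 FPKM, with DATS tumors 2 and 3 the highest. Foxred1, of complex I assembly, had 5.77, 8.77 and 7.72 against 4.65, 5.48 and 5.24 FPKM (-0.45 ± 0.19, unadjusted p = 0.0562), and Cox18, which inserts a mitochondrially encoded subunit of complex IV into the membrane, had 13.3 to 14.1 against 12.3 to 13.1 FPKM.

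Genes that regulate the chain were mixed in direction, and their activity was not measured. Of 10 tested regulators 3 were higher and 7 lower, where 49.2% of all tested genes were higher. The regulators had a median of -0.10, and Ppargc1a was below the filter at up to 0.227 FPKM. Nrf1 itself had 11, 15.7 and 12.5 FPKM in the vehicle and 14.6, 10.2 and 11.6 FPKM in the DATS tumors. Esrra, a nuclear receptor of respiratory genes, had 24.0, 20.8 and 24.3 against 21.3, 38.9 and 34.7 FPKM, high in DATS tumors 2 and 3. Gabpb1, the beta subunit of GABP, had 14.8, 13.1 and 12 against 12.4, 8.01 and 9.36 FPKM, lowest in the same 2 tumors. Tfam, which packages mitochondrial DNA, had 45.7, 33.5 and 39.2 against 51.6, 48.0 and 46.0 FPKM, without overlap. Citric acid cycle enzymes and electron carriers had a median of 0.06 over 20 rows, with 13 higher (-0.11 and 5 under equal totals), and citrate synthase (Cs) had 48.4 to 53.6 FPKM in vehicle and 45.4 to 55.0 FPKM in DATS tumors.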

How the data were processed

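RNA sequencing of 6 rat mammary tumors was deposited as 1 table of FPKM values per gene and tumor, made by the authors, with a symbol and an Ensembl ID on each row, per the file headers. The sources used here name no aligner, counter, build, annotation or strand handling, so coordinates come only from RefSeq promoters (GRCr8). The members, gene lists and tests were chosen with earlier results of these data known. Groups came from the treatment label.

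Whole reads and implied gene lengths were recovered from the FPKM steps for 100% of the 20891 genes above 0 (tolerance 1e-06). The 13631 genes whose mean over the tumors was at least 1 FPKM were analysed as log2(FPKM + 1) with limma 3.58.1 in R 4.3.3 (lmFit, eBayes with trend; two-sided, with group as sole term), with Benjamini-Hochberg adjustment over all tested genes and a threshold of 0.05. Differences are DATS minus vehicle ± SE on that scale, which understates changes of low genes; SD is over 3 tumors. Lists and complexes are described by counts and medians, with no test; 1 member enters these counts and is not reported here by name. Full statistics were given for redox core subunits, tissue isoforms with their partners, the 3 smallest p-values per complex and members spanning over 10 times between tumors; Atp5i, Ndufb10 and Uqcrc2 were added after their values were seen, as were other members named with values only. Motifs were exact string matches on both strands. Both procedures were tested on simulated data. Alternatives were another pseudocount (0.1), no filter, a filter of 5 FPKM, equal totals, quantile normalization, removal of the length trend, sample weights, limma-voom on recovered reads, a replicate block and leaving out each tumor. Tables and plots used pandas 2.3.3, numpy 2.4.6 and matplotlib 3.10.9 under Python 3.11.15.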

Additional observations from a re-analysis of the deposited data

How the results depend on the processing

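Under all 15 alternatives limma called 0 genes and 0 members. With recovered reads (limma-voom, 100% of values whole) 704 genes, and 14 members, had an unadjusted p under 0.05. As deposited, 14 of 80 members and 797 of 13631 genes reached that p, and with equal totals 1 member and 1033 genes did. Quantile normalization left 9 members beside 688 genes, and removal of the length trend 9 beside 746. Sample weights raised both counts, to 34 members and 1663 genes. A replicate block lowered both, to 5 members and 594 genes. Leaving out single tumors gave 1 to 33 members, beside 428 to 1221 genes. With equal totals the split of all such genes changed from 510 higher and 287 lower to 128 and 905. Members higher in DATS tumors numbered 54 to 71 in all alternatives. Same-numbered deviations correlated at 0.152, -0.0229 and -0.116, and differently numbered ones at -0.231 to 0.269. With 3 tumors a group these values cannot show whether the replicate numbers pair the tumors.

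With equal totals the medians of complexes I, II, III and V were 0.13, 0.00, 0.09 and 0.09. With quantile normalization those of I, II and V were 0.15, 0.03 and 0.07, and with the length trend removed those of I and V were 0.16 and 0.10. Without single tumors the medians ran from 0.26 to 0.39 for complex I, 0.12 to 0.21 for II, 0.22 to 0.33 for III, 0.09 to 0.33 for IV and 0.18 to 0.39 for V. Of 46 members with full statistics 13 changed sign in 30 of 687 values. These were, with equal totals, Atp5a1 (-0.05), Atp5c1 (-0.15), Cox7a2 row 2 (-0.09), Ndufs3 (-0.05), Sdha (-0.05), Sdhb (-0.01) and Uqcrfs1 (-0.04), and with quantile normalization Atp5a1 (-0.03), Atp5b (-0.02), Atp5c1 (-0.04), Atp5f1 row 2 (0.04) and Uqcrfs1 (-0.02). Atp5f1 row 2 was also at 0.05 with a pseudocount of 0.1 and 0.18 with limma-voom, Cox7a2 row 2 at -0.19 with the length trend removed and Cox8b at 0.04 with sample weights. Without single tumors the ranges were -0.07 to 0.07 for Atp5c1, -0.98 to 0.82 and -0.95 to 1.01 for Atp5f1 rows 1 and 2, -1.32 to 0.18 for Cox4i2, -0.22 to 0.33 for Cox7a2 row 2, -1.08 to 0.52 for Cox8b and -0.86 to 0.22 for Ndufa4l2. The cause of these changes was not tested. Cox8b, Ndufa1 in vehicle and Cox6a2 in DATS tumors rested on few reads, which limits their precision, and with 3 tumors a group a count of 0 calls does not show that no gene differed.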
